A study of Homo sapiens with 12 samples.

Results

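A set of 10 genes that hypoxia-inducible factor (HIF) is known to switch on, none of them a glycolytic enzyme, were followed in breast cancer tissue: ADM, NDRG1, BNIP3, BNIP3L, EGLN3, EGLN1, ANKRD37, KDM3A, BHLHE40 and DDIT4. They were chosen by name, and the count table held all 10 among its 58735 genes. All 10 passed the low-count filter that left 17468 genes to test. The cancer tissue was GFP-MDA-MB-231, a human triple-negative breast cancer line carrying a green fluorescent protein, embedded in fibrin gel and perfused in an AngioPlate. It shared the device with cardiac tissue (iPSC-derived cardiomyocytes plus 2% cardiac fibroblasts) in cardiac co-culture and with hepatic tissue (HepG2 hepatoblastoma cells plus 2% lung fibroblasts) in hepatic co-culture, and was alone in monoculture. Only the cancer tissue was taken for RNA, 5 days after its seeding, and each of the 3 groups had 4 libraries. One cancer line stands for breast cancer here, and the labels call the libraries biological replicates without naming the cultures behind them, so a p-value here covers only library-to-library spread, which may be technical.

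HIF is a transcription factor made of an oxygen-regulated alpha subunit (HIF1A or EPAS1) and the constant partner ARNT. With oxygen present, prolyl hydroxylases of the EGLN family mark the alpha subunit for capture by VHL and for degradation, and without oxygen it accumulates and binds promoters and enhancers that hold the core letters ACGTG or GCGTG. Several targets act back on the pathway or on oxygen use: EGLN1 and EGLN3 are the hydroxylases themselves, BNIP3 and BNIP3L clear mitochondria, and DDIT4 restrains growth signalling through mTORC1. Some of these genes also have other regulators, such as the glucocorticoid receptor and the stress factor ATF4 for DDIT4 and the circadian clock for BHLHE40. Protein, hydroxylation and oxygen were not measured.

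Total counts per library were 26.2 to 42.4 M (M for 1e6). Each member had between 107 counts (ANKRD37) and 63065 counts (NDRG1) in a library. Levels are given below as counts per 1e6 counts (CPM) after TMM scaling. Markers of the MDA-MB-231 line summed to between 5281 and 6360 CPM in all 12 libraries, and 10 of 10 of them reached 1 CPM. The 15 hepatocyte markers summed to 70.1 to 96.3 CPM in cardiac co-culture, 35.2 to 58.5 CPM in hepatic co-culture and 42.3 to 74.5 CPM in monoculture. SERPINA1 made up most of that sum, and APOA2 and FABP1 had 0 counts throughout. The 14 cardiomyocyte markers summed to 1.74 to 4.84 CPM in cardiac co-culture, 0.847 to 2.33 CPM in hepatic co-culture and 2.47 to 3.44 CPM in monoculture. Among them, MYH6 with 21 counts and MYL7 with 8 counts were found in cardiac replicate 4 and in no other library. The 12 fibroblast markers summed to 15.7 to 18.2, 12.5 to 24.9 and 15.8 to 22.8 CPM in cardiac, hepatic and monoculture libraries, with THY1, POSTN and DPT at 0 counts. Of the 7 tested, 2 rose and 2 fell in hepatic co-culture against monoculture, where 14.4% of all tested genes rose and 13.6% fell. COL1A2 averaged 4.55 CPM in hepatic co-culture and 1.56 CPM in monoculture and COL3A1 0.634 and 0.0891 CPM (edgeR adjusted p = 0.0121 and 0.0257), while FBLN1 averaged 0.856 CPM in hepatic co-culture and 6.12 CPM in monoculture and DCN 0.278 and 2.48 CPM (adjusted p = 7.88e-07 and 3.96e-05). The part of these traces in the results was not tested. Because the samples are bulk tissue, fewer cells of a type and less RNA per cell cannot be told apart.

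The promoters of ADM, BHLHE40, KDM3A and DDIT4 are shown because these members passed the test in at least 1 comparison and their promoters can be read for the core HIF letters. NDRG1 also passed but, like BNIP3L, had no entry among the promoters used. KDM3A had 2 entries, each with 1 GCGTG match, of which 1 is shown. The ADM, BHLHE40 and KDM3A stretches lie inside the gene coordinates given below, which come from another annotation. Each is the 250 bases before the RefSeq start (GRCh38.p14, all on the plus strand), 5′ to 3′, with every ACGTG or GCGTG match on either strand in capitals.
ADM (chr11:10304823-10305072): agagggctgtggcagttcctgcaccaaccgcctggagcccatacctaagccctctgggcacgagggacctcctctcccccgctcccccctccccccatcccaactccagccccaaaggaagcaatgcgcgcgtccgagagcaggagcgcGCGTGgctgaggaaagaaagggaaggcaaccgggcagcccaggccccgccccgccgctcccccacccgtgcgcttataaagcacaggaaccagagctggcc
BHLHE40 (chr3:4979187-4979436): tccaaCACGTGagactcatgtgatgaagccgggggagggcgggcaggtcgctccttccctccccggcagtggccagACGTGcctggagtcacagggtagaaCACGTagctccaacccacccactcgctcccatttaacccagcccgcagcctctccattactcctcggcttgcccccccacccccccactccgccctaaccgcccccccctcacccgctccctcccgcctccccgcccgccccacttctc
KDM3A (chr2:86441121-86441370): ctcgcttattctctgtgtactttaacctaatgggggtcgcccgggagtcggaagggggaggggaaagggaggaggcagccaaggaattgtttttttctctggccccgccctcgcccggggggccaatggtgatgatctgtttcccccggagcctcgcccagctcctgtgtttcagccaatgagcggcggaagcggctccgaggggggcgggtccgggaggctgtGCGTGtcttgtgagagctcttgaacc
DDIT4 (chr10:72273674-72273923): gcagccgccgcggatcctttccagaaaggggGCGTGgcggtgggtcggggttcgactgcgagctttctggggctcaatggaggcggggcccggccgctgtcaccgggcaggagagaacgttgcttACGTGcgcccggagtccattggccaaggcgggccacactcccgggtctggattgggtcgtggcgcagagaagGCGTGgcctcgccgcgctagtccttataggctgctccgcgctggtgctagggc
ADM and KDM3A each held 1 GCGTG match, BHLHE40 held 4 ACGTG matches, and DDIT4 held 1 ACGTG and 2 GCGTG matches. The BHLHE40 stretch also held 1 CACGTG, the E-box letters, which counts as an ACGTG match on each strand. Of the 10 members, 8 were matched in the promoter table, and 7 of those 8 held ACGTG or GCGTG on either strand, against 43.2% of the 35116 promoters of the same length. ACGTG alone was in 5 of the 8 members, against 18.5% of all promoters, and GCGTG alone in 4 of 8, against 32.2%. CACGTG, which contains ACGTG, was in 3 of 8 members and in 6.34% of all promoters. These are matches of letters, not measured binding.

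All 10 members averaged higher in cardiac co-culture than in monoculture and higher in hepatic co-culture than in monoculture, by up to 4.75-fold and up to 4.21-fold (ADM in both). Few passed the test across all genes. In cardiac co-culture KDM3A and DDIT4 rose, and in hepatic co-culture ADM, NDRG1 and BHLHE40 rose (edgeR's quasi-likelihood test, Benjamini-Hochberg adjusted over 17468 genes, threshold 0.05). The count of 2 of 10 in cardiac co-culture stands beside 4.93% of all tested genes called higher, and that of 3 of 10 in hepatic co-culture beside 14.4%. No member fell in either comparison, where 3.33% and 13.6% of all tested genes did. Groups without overlap, with every co-culture library above every monoculture library, were seen for 1 member in cardiac co-culture, beside 7.77% of all tested genes, and for 5 members in hepatic co-culture, beside 15.1%. The median log2 fold change over the members was 0.99 in cardiac co-culture and 0.82 in hepatic co-culture, against 0.01 over all tested genes in each comparison. Both comparisons use the same monoculture libraries, so they are not independent of each other.

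**Figure D1:**
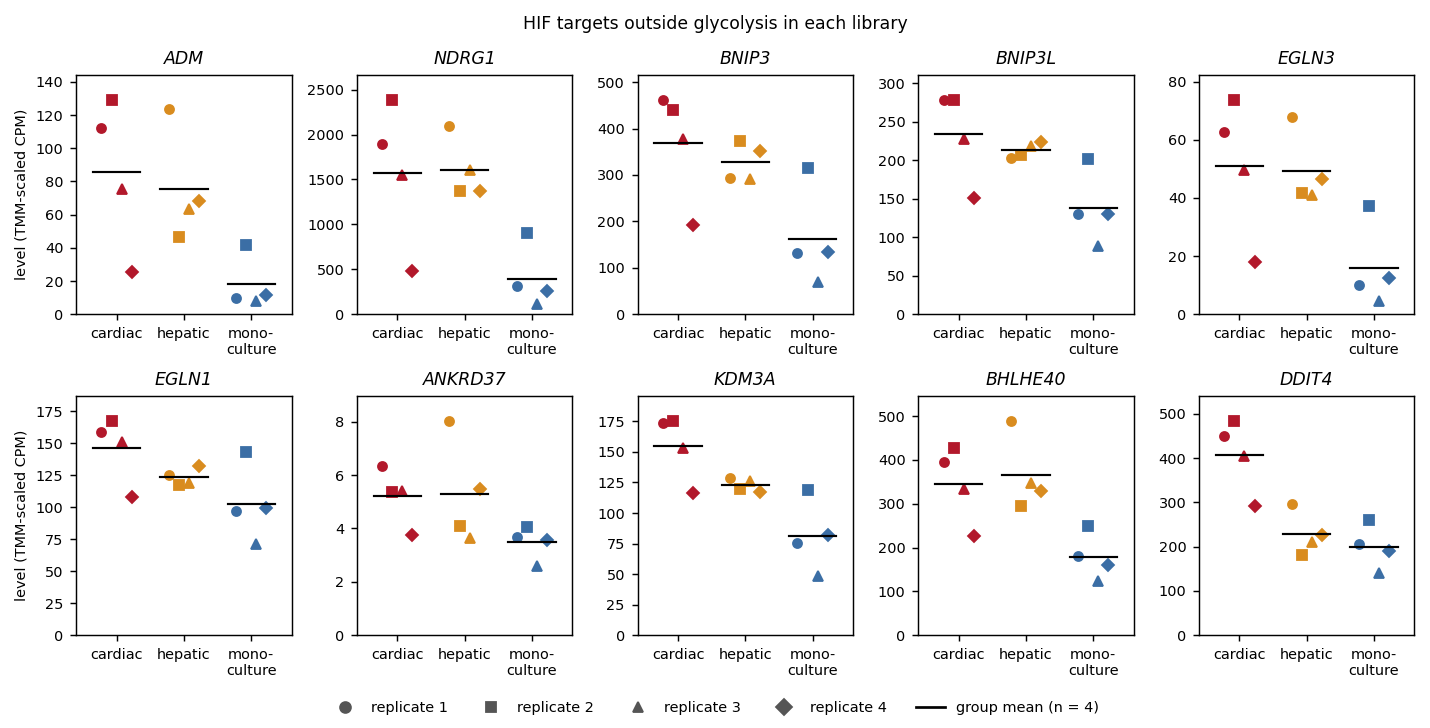
Level of each of the 10 members in each library, as TMM-scaled CPM on a linear axis that starts at 0, by group (cardiac, hepatic, monoculture); symbols are replicates 1 to 4 and black lines are group means (n = 4). Cardiac replicate 4 is the lowest cardiac library and monoculture replicate 2 the highest monoculture library for all 10 members.

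ADM encodes adrenomedullin, a secreted vasodilator peptide, and was the member with the largest fold change in both comparisons (chr11:10304680-10307397, plus strand, GRCh38). It had 112, 129, 75.5 and 25.7 CPM in cardiac replicates 1 to 4, 124, 46.4, 63.7 and 68.4 CPM in hepatic replicates 1 to 4, and 10, 42.0, 8.24 and 11.5 CPM in monoculture replicates 1 to 4. All hepatic libraries lay above all monoculture libraries, whereas cardiac replicate 4 lay below monoculture replicate 2. The log2 fold change was 2.25 ± 0.67 (SE) in cardiac co-culture, with an edgeR adjusted p of 0.0708, and 2.07 ± 0.67 in hepatic co-culture, with an adjusted p of 0.0454. The hepatic call was made in 2 of the 12 fits that each left out 1 library, those without monoculture replicate 2 and without cardiac replicate 4.

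NDRG1, a stress-induced cytoplasmic protein studied as a metastasis suppressor, had the highest CPM of the members (chr8:133237171-133302022, minus strand). Its levels were 1891, 2383, 1550 and 482 CPM in cardiac co-culture, 2097, 1368, 1607 and 1372 CPM in hepatic co-culture, and 311, 902, 115 and 255 CPM in monoculture. The hepatic and monoculture libraries did not overlap, and the cardiac libraries overlapped monoculture only through cardiac replicate 4. NDRG1 rose in hepatic co-culture by 2.03 ± 0.65 on the log2 scale (edgeR adjusted p = 0.0455), a call also made in 2 of the 12 fits without 1 library. Its log2 fold change in cardiac co-culture was 1.99 ± 0.65, with an adjusted p of 0.0924.

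BNIP3 (chr10:131966455-131982013, minus strand) and BNIP3L (chr8:26382898-26505636, plus strand) encode paired receptors of the outer mitochondrial membrane that recruit the autophagy machinery to mitochondria. BNIP3 had 461, 440, 378 and 193 CPM in cardiac co-culture, 293, 374, 292 and 351 CPM in hepatic co-culture, and 131, 314, 70.1 and 134 CPM in monoculture. Monoculture replicate 2 reached into the range of both co-cultures. BNIP3L had 278, 278, 228 and 151 CPM in cardiac co-culture, 203, 207, 219 and 224 CPM in hepatic co-culture, and 130, 201, 88.3 and 130 CPM in monoculture. Its hepatic libraries lay within a narrow band just above monoculture replicate 2, so those groups did not overlap. For BNIP3 the log2 fold changes were 1.18 ± 0.43 in cardiac and 1.01 ± 0.43 in hepatic co-culture, with edgeR adjusted p of 0.126 and 0.116. For BNIP3L they were 0.77 ± 0.25 and 0.64 ± 0.25, with adjusted p of 0.0904 and 0.0888, so neither receptor passed in either comparison. Exons of BNIP3L share 330 bases with PNMA2 on the other strand, which averaged 41.2 CPM, and the strand setting of the counting is not given in the sources used here.

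EGLN3 (chr14:33924231-34462774, minus strand) and EGLN1 (chr1:231363751-231425044, minus strand) encode prolyl hydroxylases of HIF alpha subunits, of which EGLN1 is the main one in normal oxygen. EGLN3 had 62.8, 73.6, 49.7 and 17.9 CPM in cardiac co-culture, 67.7, 41.6, 41.0 and 46.5 CPM in hepatic co-culture, and 10.1, 37.2, 4.41 and 12.3 CPM in monoculture. The hepatic libraries were all above the monoculture libraries, while cardiac replicate 4 was below monoculture replicate 2. EGLN1 had 159, 167, 151 and 108 CPM in cardiac co-culture, 125, 117, 119 and 132 CPM in hepatic co-culture, and 97.3, 143, 71.4 and 99.6 CPM in monoculture, where replicate 2 stood above every hepatic library. The log2 fold changes of EGLN3 were 1.67 ± 0.63 in cardiac and 1.62 ± 0.63 in hepatic co-culture, with edgeR adjusted p of 0.136 and 0.0885. Those of EGLN1 were smaller, at 0.51 ± 0.19 and 0.26 ± 0.19, with adjusted p of 0.127 and 0.347. Neither hydroxylase passed in either comparison.

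KDM3A is a histone demethylase that removes a repressive methyl mark (chr2:86440647-86492716, plus strand). Its levels were 174, 175, 153 and 116 CPM in cardiac co-culture, 129, 120, 126 and 117 CPM in hepatic co-culture, and 75.4, 119, 48.8 and 82.3 CPM in monoculture. Cardiac replicate 4 was just below monoculture replicate 2, so the groups overlapped by those libraries. KDM3A rose in cardiac co-culture by 0.92 ± 0.23 on the log2 scale (edgeR adjusted p = 0.0422), a call made in 3 of the 12 fits without 1 library. In hepatic co-culture its log2 fold change was 0.60 ± 0.23, with an adjusted p of 0.0861.

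BHLHE40 is a basic helix-loop-helix repressor that binds E-boxes and dampens the circadian clock (chr3:4979116-4985323, plus strand). It had 396, 427, 334 and 226 CPM in cardiac co-culture, 488, 295, 347 and 329 CPM in hepatic co-culture, and 181, 250, 124 and 161 CPM in monoculture. The hepatic libraries stood clear of monoculture, and only cardiac replicate 4 crossed below monoculture replicate 2. BHLHE40 rose in hepatic co-culture by 1.03 ± 0.26 on the log2 scale (edgeR adjusted p = 0.0175), and this call was made in 12 of 12 fits without 1 library. The cardiac log2 fold change was 0.95 ± 0.26, with an adjusted p of 0.0562.

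DDIT4, also known as REDD1, inhibits mTORC1 and is a target of HIF, of ATF4 and of the glucocorticoid receptor (chr10:72273920-72276036, plus strand). It had 449, 483, 405 and 291 CPM in cardiac co-culture, 297, 182, 211 and 226 CPM in hepatic co-culture, and 206, 260, 141 and 190 CPM in monoculture. DDIT4 was the 1 member whose cardiac libraries all lay above all monoculture libraries. The hepatic libraries overlapped the monoculture libraries. DDIT4 rose in cardiac co-culture by 1.03 ± 0.22 on the log2 scale (edgeR adjusted p = 0.0251), a call made in 6 of the 12 fits without 1 library. Its hepatic log2 fold change was 0.20 ± 0.22, with an adjusted p of 0.549 and a 95% interval of -0.29 to 0.69.

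ANKRD37, an ankyrin repeat protein, was the member with the lowest level (chr4:185396021-185400628, plus strand). Its range was 3.76 to 6.34 CPM in cardiac co-culture, 3.66 to 8.01 CPM in hepatic co-culture and 2.61 to 4.06 CPM in monoculture, so both co-cultures overlapped monoculture. The log2 fold changes of 0.58 ± 0.24 in cardiac and 0.61 ± 0.24 in hepatic co-culture did not pass (edgeR adjusted p = 0.124 and 0.0605). Its exons share 909 bases with UFSP2 on the other strand, which averaged 14.3 CPM, above ANKRD37 itself, so its counts are uncertain.

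**Figure D2:**
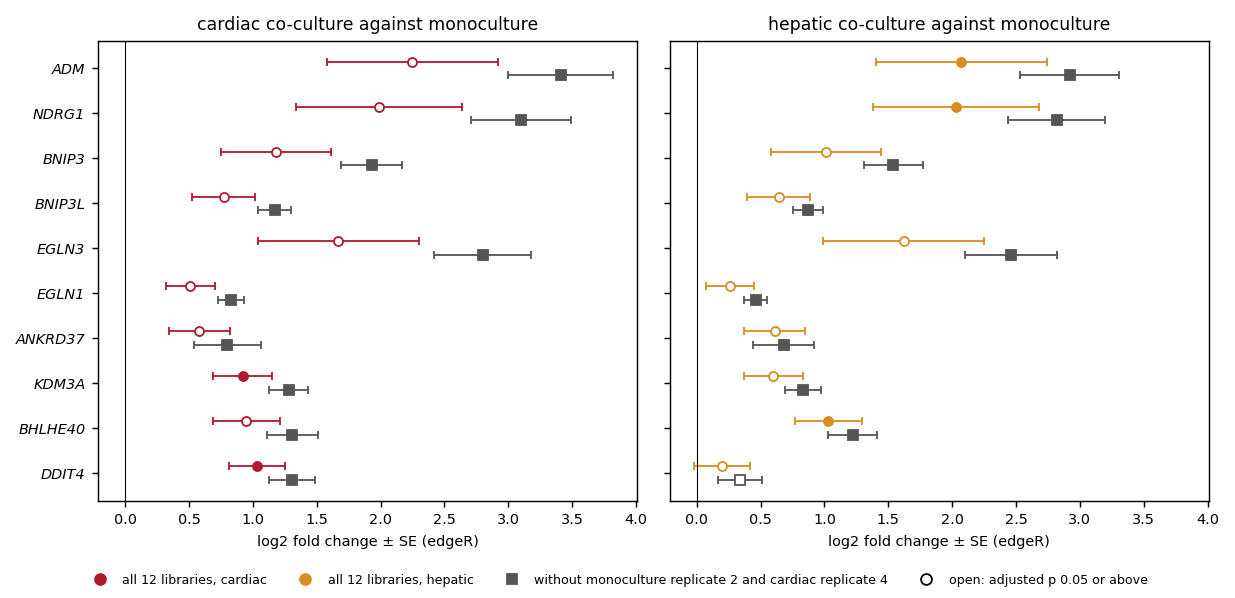
Log2 fold change of each member with its SE (edgeR) for cardiac co-culture (left) and hepatic co-culture (right) against monoculture, with all 12 libraries (circles) and without monoculture replicate 2 and cardiac replicate 4 (squares); filled symbols have an adjusted p under 0.05. With all libraries KDM3A and DDIT4 are filled on the left and ADM, NDRG1 and BHLHE40 on the right, and without those libraries all but DDIT4 on the right are filled.

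By CPM per kilobase of exon, DDIT4 or NDRG1 was the highest member in each group. DDIT4 led in cardiac co-culture at 198 CPM per kilobase, with NDRG1 next at 160. NDRG1 led in hepatic co-culture at 164, followed by DDIT4 at 111. In monoculture DDIT4 was first at 96.9, BHLHE40 next at 46.7 and then NDRG1 at 40.3. ANKRD37 was last in every group, at 2.02 in cardiac, 2.06 in hepatic and 1.35 CPM per kilobase in monoculture libraries.

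Between the co-cultures no member was called, and DDIT4 came nearest to the threshold. None passed for cardiac against hepatic co-culture in edgeR, where 3.27% of all tested genes were called higher and 2.91% lower, and the groups overlapped for all 10 members, where every cardiac library was above every hepatic library for 6% of all tested genes. At an unadjusted p under 0.05 there was 1, DDIT4, and DESeq2 called the same 1, beside 5.22% of the genes it tested. DDIT4 averaged 407 ± 83.8 CPM in cardiac co-culture and 229 ± 49.0 CPM in hepatic co-culture (SD, n = 4 each). The log2 difference was 0.83 ± 0.22, with a 95% interval of 0.34 to 1.32 and an edgeR adjusted p of 0.057. The lowest cardiac library, at 291 CPM, was just below the highest hepatic library, at 297 CPM. Intervals for the others were wide enough to hold changes in either direction. That of ADM ran from -1.25 to 1.60, that of NDRG1 from -1.45 to 1.39 and that of KDM3A from -0.19 to 0.85.

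Libraries of the same group differed widely in these genes. The median SD of log2 CPM over the members was 0.41 in cardiac, 0.29 in hepatic and 0.51 in monoculture libraries, against 0.19, 0.19 and 0.15 over all tested genes. The 90th percentile over all tested genes, 0.70, 0.71 and 0.68, was exceeded by 3, 0 and 4 members. All 10 members were above the median of all genes in the cardiac and monoculture groups, and 6 were in the hepatic group. Monoculture replicate 2 was the highest of its group for 10 of 10 members, as it was for 25.9% of all tested genes, and monoculture replicate 3 the lowest for 10 of 10, against 28.6%. Cardiac replicate 4 was the lowest of its group for 10 of 10 members, against 32% of all genes. Members share a library, so these counts describe libraries and are not independent observations. Monoculture replicate 2 and cardiac replicate 4 had been singled out for the values of these same genes, so their ranks are a description only.

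In monoculture, EGLN3 differed 8.45-fold and NDRG1 7.86-fold between the highest and lowest library. Monoculture replicate 2 lay above cardiac replicate 4 for 9 of 10 members. Even so, cardiac replicate 4 was above the other monoculture libraries for 10 of 10 members, and it was below every hepatic library for 8 of 10. Shares over all tested genes were not computed for these counts, which describe libraries and not independent members. On the first principal component of all tested genes, which held 28.5% of the variance, cardiac replicate 4 was at -24.9, among the monoculture libraries at -51.1 to -22.3. The other cardiac libraries were at 6.79 to 16.3 and the hepatic libraries at 24.5 to 46.8. Leaving out cardiac replicate 4 lowered the median member SD in cardiac co-culture to 0.16. In monoculture, leaving out replicate 2 lowered it to 0.30 and leaving out replicate 3, the lowest for 10 of 10 members, to 0.36. In hepatic co-culture, leaving out replicate 1, the highest library for 7 of 10 members, lowered it to 0.13. These libraries were extremes of their groups for most or all members, so a lower SD largely follows from that choice.

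**Figure D3:**
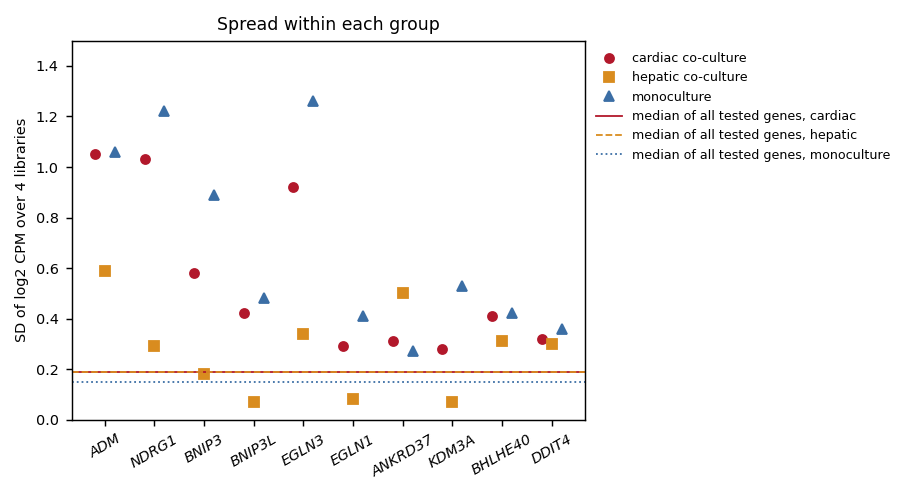
SD of log2 CPM over the 4 libraries of each group (points) for each member, with lines for the median over all tested genes of the group. The cardiac and hepatic lines coincide at 0.19 and the monoculture line is at 0.15; all cardiac and monoculture points lie above their line, and 6 of the 10 hepatic points do.

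How many members passed therefore turned on which libraries were in the fit. Without monoculture replicate 2, edgeR called 9 members higher in cardiac and 8 in hepatic co-culture, beside 5.42% and 13.4% of all tested genes. Without cardiac replicate 4 it called 8 and 5, beside 9.9% and 15.5%. Each of these fits also called DDIT4 higher in cardiac than in hepatic co-culture, beside 2.97% and 2.61% of all tested genes. Without both, it called 10 of 10 in cardiac co-culture and 9 of 10 in hepatic co-culture, beside 10.1% and 15.5%, with DDIT4 the 1 member not called in hepatic co-culture (0.34 ± 0.17, adjusted p = 0.152). In that fit ADM stood at 3.41 ± 0.41 in cardiac and 2.92 ± 0.39 in hepatic co-culture on the log2 scale, and NDRG1 at 3.10 ± 0.39 and 2.82 ± 0.38. For cardiac against hepatic co-culture it called EGLN1 (0.37 ± 0.09, adjusted p = 0.0243) and DDIT4 (0.97 ± 0.16, adjusted p = 0.00762), beside 2.8% of all tested genes. These libraries were singled out for the values of these same genes, so the fits without them are a description and not independent support. With all libraries kept, DESeq2 called 8 members in cardiac and 7 in hepatic co-culture, beside 9.17% and 15% of the genes it tested. Fits of only the groups compared called DDIT4 in cardiac and BHLHE40 in hepatic co-culture and DDIT4 between the co-cultures, beside 4.99%, 16% and 2.46% of the genes tested. With no low-count filter 1 member was called in cardiac, 2 in hepatic and 0 between the co-cultures, beside 3.69%, 7.56% and 2.36%. Leaving out any 1 of cardiac replicates 1 to 3 or monoculture replicates 1 and 4 left 0 members called in cardiac co-culture, in fits that called between 1.08% and 2.02% of all tested genes higher there.

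**Figure D4:**
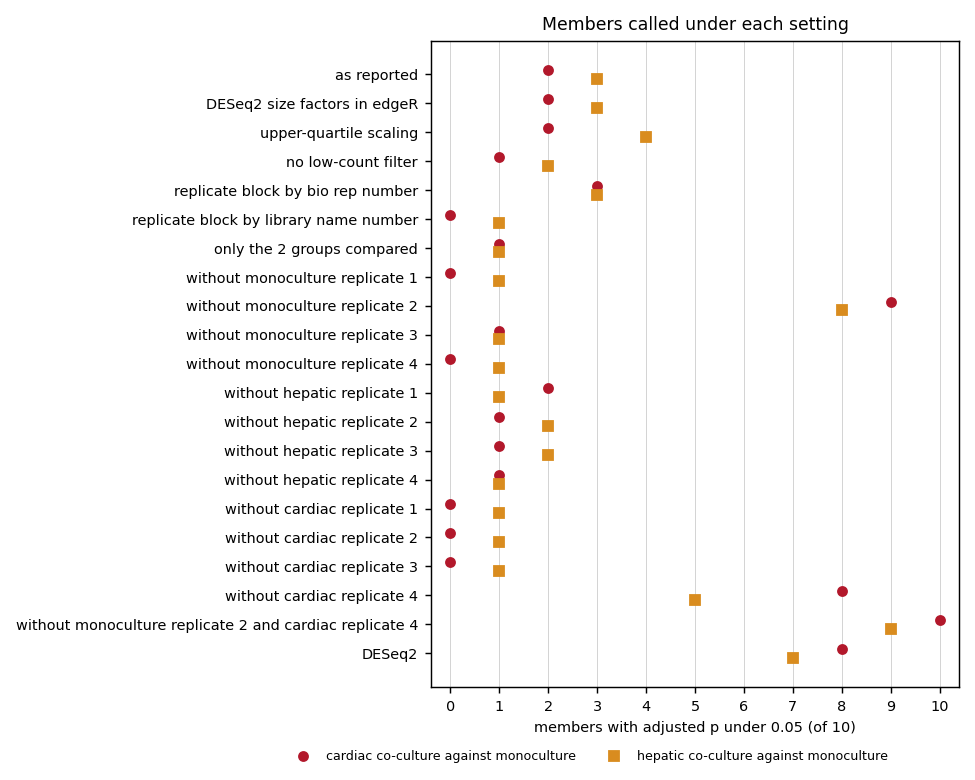
Number of the 10 members with an adjusted p under 0.05 under each setting of the analysis, for cardiac (circles) and hepatic co-culture (squares) against monoculture. The count ranges from 0 to 10 in cardiac and from 1 to 9 in hepatic co-culture, and is highest without monoculture replicate 2 and cardiac replicate 4.

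Most other HIF targets outside glycolysis had positive log2 fold changes, 25 of 29 in cardiac and 22 of 29 in hepatic co-culture. Over all 17468 tested genes 8894 and 9010 were positive. Of 29 tested, 8 rose and 1 fell in cardiac co-culture, and 9 rose and 5 fell in hepatic co-culture, with median log2 fold changes of 0.75 and 0.59. For this list and those below, the shares of all tested genes are 4.93% higher and 3.33% lower in cardiac and 14.4% higher and 13.6% lower in hepatic co-culture. The falls in this list were near those shares, and the rises were above them. VEGFA, the main angiogenic growth factor, had 809, 1090, 789 and 353 CPM in cardiac co-culture, 895, 497, 738 and 590 CPM in hepatic co-culture, and 251, 406, 173 and 203 CPM in monoculture. As for 9 of the 10 members, cardiac replicate 4 lay below monoculture replicate 2. VEGFA rose by 1.56 ± 0.38 in cardiac and by 1.40 ± 0.38 in hepatic co-culture on the log2 scale (edgeR adjusted p = 0.0402 and 0.0233), calls made in 4 and 7 of the 12 fits without 1 library. CA9, the carbonic anhydrase used as a hypoxia marker, had 21.0, 27.5, 20.9 and 2.92 CPM in cardiac co-culture, 23.4, 8.34, 10.1 and 10.1 CPM in hepatic co-culture, and 0.886, 8.50, 0.0923 and 0.278 CPM in monoculture. Its log2 fold changes of 2.88 ± 1.11 and 2.40 ± 1.10 did not pass (adjusted p = 0.14 and 0.139). ZNF395, WSB1 and P4HA2, a collagen prolyl hydroxylase subunit, had the smallest adjusted p of the list in cardiac co-culture, where they rose by 0.60 ± 0.11, 0.41 ± 0.09 and 0.50 ± 0.11 on the log2 scale.

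A few targets of the same list fell in hepatic co-culture, at a share near that of all tested genes. ANGPTL4, an inhibitor of lipoprotein lipase, averaged 34.4 CPM in hepatic co-culture and 159 CPM in monoculture, and TFRC, the transferrin receptor, averaged 129 CPM in hepatic co-culture and 217 CPM in monoculture. Their log2 fold changes were -2.21 ± 0.18 and -0.75 ± 0.14 (edgeR adjusted p = 1.21e-05 and 0.00205), and both calls were made in 12 of 12 fits without 1 library. Against hepatic co-culture, ANGPTL4 was higher in cardiac co-culture by 2.39 ± 0.18, as was PLIN2, a lipid droplet protein, by 0.88 ± 0.16. PLIN2 was also higher in cardiac co-culture than in monoculture (0.61 ± 0.16, adjusted p = 0.0411), a call made in 3 of those 12 fits.

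The pathway's own machinery showed no shared direction. Of 17 tested genes of HIF subunits and oxygen sensing (HIF3A was below the low-count filter), 1 rose and 1 fell in cardiac co-culture and 3 rose and 4 fell in hepatic co-culture, with medians of -0.03 and -0.04. HIF1A mRNA had 392, 382, 426 and 484 CPM in cardiac co-culture, 534, 556, 598 and 555 CPM in hepatic co-culture, and 592, 486, 642 and 591 CPM in monoculture. The cardiac libraries were all below the monoculture and hepatic libraries. HIF1A was lower in cardiac co-culture than in monoculture by a log2 difference of -0.46 ± 0.09 (edgeR adjusted p = 0.00742) and lower than in hepatic co-culture by -0.41 ± 0.09 (adjusted p = 0.00705), each called in 12 of 12 fits without 1 library. EPAS1, the other main alpha subunit, fell in hepatic co-culture (log2 fold change -0.60 ± 0.11, adjusted p = 0.000667), averaging 79.5 CPM there and 120 CPM in monoculture. Its difference between cardiac and hepatic co-culture was 0.44 ± 0.11 (adjusted p = 0.0198, called in 9 of 12 such fits).

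VHL averaged 140, 139 and 135 CPM in cardiac, hepatic and monoculture libraries, and its log2 fold changes of 0.05 ± 0.06 and 0.04 ± 0.06 did not pass. HIF1AN, the asparagine hydroxylase of HIF, and EGLN2, the remaining EGLN hydroxylase, did not pass either, with -0.03 ± 0.06 and 0.35 ± 0.32 in cardiac and -0.12 ± 0.06 and -0.06 ± 0.33 in hepatic co-culture. EGLN2 averaged only 2.46, 1.85 and 1.93 CPM in cardiac, hepatic and monoculture libraries, so a change in it could be missed. P4HTM, a transmembrane prolyl hydroxylase, rose by 0.42 ± 0.07 in hepatic (edgeR adjusted p = 0.000444) and by 0.27 ± 0.07 in cardiac co-culture (adjusted p = 0.0311, called in 6 of 12 fits without 1 library). CUL2, a scaffold of the VHL ubiquitin ligase, fell in hepatic co-culture (-0.34 ± 0.09, adjusted p = 0.00695). CREBBP, a coactivator of HIF, was higher in cardiac than in hepatic co-culture by 0.32 ± 0.09 (adjusted p = 0.0358, called in 6 of 12 such fits).

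Glycolytic HIF targets moved in 1 direction where they were called. Of 21 tested, 9 rose in cardiac and 14 in hepatic co-culture and none fell, with medians of 0.74 and 0.65. GPI, PFKP and PFKL, enzymes of the upper part of the pathway, rose in cardiac co-culture by 0.64 ± 0.13, 0.47 ± 0.10 and 0.80 ± 0.16 (edgeR adjusted p = 0.012, 0.012 and 0.0157). In hepatic co-culture GPI, PFKP and ENO2 had the smallest adjusted p, and rose by 0.51 ± 0.13, 0.37 ± 0.10 and 1.62 ± 0.37. The libraries that stood apart for the members did so for these lists as well. Cardiac replicate 4 was the lowest cardiac library for the members, the other HIF targets and the glycolytic targets, with list medians of -0.29, -0.28 and -0.07 relative to the mean of the 12 libraries. Its rank was not particular to HIF targets. It was also the lowest cardiac library for the glucocorticoid, ATF4, clock and HIF subunit lists, at 0.14, -0.20, 0.00 and -0.07. Monoculture replicate 3 was the lowest of the 12 libraries for the members, other HIF targets and glycolytic targets, at -1.18, -0.84 and -0.93.

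**Figure D5:**
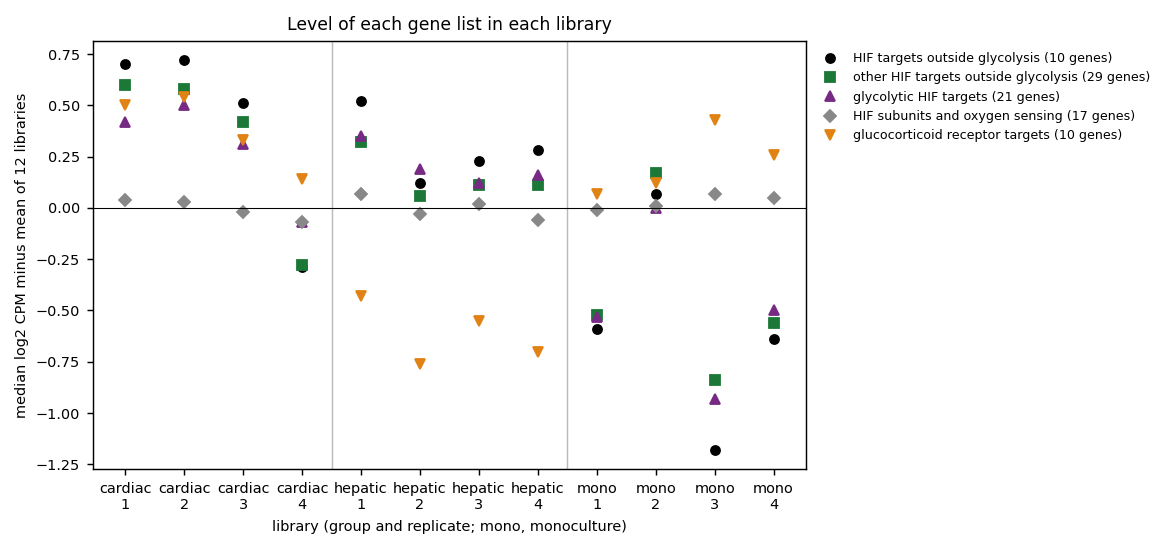
Median over the genes of each list of log2 CPM minus that gene's mean over the 12 libraries, by library in cardiac, hepatic and monoculture groups. The members run between -1.18 (monoculture replicate 3) and 0.72 (cardiac replicate 2), while the HIF subunit list stays between -0.07 and 0.07.

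DDIT4 is also listed among genes that respond to glucocorticoids. Of 10 other glucocorticoid receptor targets, 2 rose and 6 fell in hepatic co-culture, and 6 were higher in cardiac than in hepatic co-culture, where 3.27% of all tested genes were, with medians of -0.99 and 1.07. In cardiac co-culture against monoculture 2 of the 10 rose, with a median of 0.20. FKBP5, a chaperone partner of the receptor, had 241, 227, 225 and 288 CPM in cardiac co-culture, 39.2, 54.6, 41.1 and 47.9 CPM in hepatic co-culture, and 263, 262, 346 and 331 CPM in monoculture. Hepatic libraries were far below both other groups. FKBP5 fell in hepatic co-culture with a log2 fold change of -2.71 ± 0.13 (edgeR adjusted p = 4.71e-09), and TSC22D3, a glucocorticoid-induced leucine zipper protein, fell with -0.98 ± 0.11. PER1, a clock repressor, averaged 33.5 CPM in hepatic co-culture and 66.8 CPM in monoculture and fell too (adjusted p = 3.02e-07). The cardiac calls were ERRFI1, a feedback inhibitor of EGFR, at 0.47 ± 0.11, and KLF9, a transcription factor, at 0.65 ± 0.15, each called in 6 of 12 fits without 1 library. DUSP1, a phosphatase of MAP kinases, was higher in cardiac than in hepatic co-culture by 1.37 ± 0.12 (adjusted p = 7.73e-06).

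Among themselves the members followed nearly one pattern over the 12 libraries. Pearson's r of each with the mean of the other members was 0.94 to 0.98, apart from ANKRD37 at 0.83 and DDIT4 at 0.78. Among 11614 other protein-coding genes with mean log2 CPM above 1, those most like the members' mean pattern were STC1 (r = 0.994), PFKFB4 (0.988), GPI (0.984), RORA (0.984), KDM4B (0.983), VWA1 (0.983), RARA (0.982) and PGK1 (0.982). Without monoculture replicate 2 and cardiac replicate 4 the same 8 genes had r of 0.983 to 0.995 over 10 libraries. These values describe 12 points that share library scaling and fall into 3 groups, and PFKFB4, GPI, PGK1, RORA and KDM4B were on the HIF target lists above.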

How the data were processed

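RNA of the cancer tissue was sequenced in 12 libraries, 4 per group, after poly(A) selection per the labels' protocols. The deposited table holds raw counts of reads per Ensembl gene, not normalized. Per the submitters' processing notes, HISAT2 2.2.1, featureCounts 2.0.6 and DESeq2 1.42.0 were used with GRCh38; the strand setting is not given in the sources used here. Symbols and coordinates come from GENCODE release 29 (58735 of 58735 gene identifiers found), and promoters from RefSeq.

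From these counts, edgeR 4.0.16 (R 4.3.3) was run with TMM scaling, filterByExpr and its robust quasi-likelihood test, two-sided, in 1 fit over 12 libraries. P-values were adjusted over 17468 genes (Benjamini-Hochberg, threshold 0.05). Total counts were 26.2 to 42.4 M. The common biological coefficient of variation came to 14.9%. The pipeline was checked on simulated counts. SE is the log2 fold change divided by the square root of F, intervals are 95%, and log2 CPM used a prior count of 2.

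Members and lists (other HIF targets, HIF subunits, glycolytic, glucocorticoid, ATF4, clock and mitophagy genes, cell type markers) were chosen with earlier results of these data known. All 10 members are named, with the 3 smallest adjusted p among the called genes of each list, 7 genes named whatever they did, and the 8 genes most alike in pattern; some genes that this rule takes are not reported here. Alternatives were DESeq2 1.42.0, other scalings, no filter, replicate blocks, fits of the groups compared only, and libraries left out. No library was dropped or imputed in the values reported as main.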

Additional observations from a re-analysis of the deposited data

Results flagged for a closer look

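ADM in monoculture was marked because its highest library stood far from the others. Monoculture replicate 2 had 42.0 CPM and the other monoculture libraries had 8.24 to 11.5 CPM, so the gap to the nearest library was 0.902 of the whole range, above Dixon's 95% critical value for 4 samples. Dixon's ratio was computed for the 10 members in 3 groups, 30 sets of values in all, of which this was the 1 marked. Chance marks about 1 in 20, so 1 mark in 30 is not more than chance gives. Monoculture replicate 2 had been singled out for the values of these same genes, and the sets share libraries. The mark is therefore a description only.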

How the results depend on the processing

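The log2 fold changes of all 10 members against monoculture were positive in every fit run, and no called value reversed. Counts of members called moved, with 2 in cardiac and 3 in hepatic co-culture against monoculture and 0 for cardiac against hepatic co-culture in the fits reported. Leaving out 1 library gave 0 to 9 in cardiac, 1 to 8 in hepatic and 0 to 1 between the co-cultures. In the same order, those fits called 1.08% to 9.9%, 10.6% to 15.5% and 2.06% to 3.87% of all tested genes higher. DESeq2 gave 8, 7 and 1, fits of only the groups compared gave 1, 1 and 1, and fits without monoculture replicate 2 and cardiac replicate 4 gave 10, 9 and 2. No low-count filter gave 1 in cardiac and 2 in hepatic co-culture, and upper-quartile scaling and DESeq2 size factors gave 2 in cardiac, and 4 and 3 in hepatic co-culture. Upper-quartile scaling also called more genes higher, 6.16% in cardiac and 16.5% in hepatic co-culture, against 4.93% and 14.4% with TMM, and DESeq2 size factors called 4.91% and 14.1%. The split under upper-quartile scaling in cardiac co-culture was 1076 higher and 414 lower, against 862 and 581 with TMM. The cause of these moves was not tested.

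Samples with the same replicate number showed little shared deviation (r from -0.0816 to 0.113 over 12 pairs). The same held for those with the same number in the library name (r from -0.0513 to 0.0905 over 8 pairs). Pairs with different replicate numbers had r from -0.172 to 0.11. These values cannot tell whether samples with the same number shared a seeding or a plate, which the labels do not say. With a replicate block by replicate number 3 members were called in cardiac and 3 in hepatic co-culture, beside 4.57% and 13.7% of all tested genes, and with a block by library name number 0 and 1. In the last fit 0 genes in all were called higher in cardiac co-culture and 12% in hepatic co-culture, and 3 members in cardiac co-culture had an unadjusted p under 0.05. Cardiac replicates 1 and 3 have library name numbers that no other library shares, so they add nothing to that comparison. It rested on cardiac replicates 2 and 4, whereas each hepatic library had a monoculture library of the same number. That fit therefore compared fewer cardiac libraries than the others.

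The median within-group SD of the members lay between 0.16 and 0.51 in cardiac, 0.13 and 0.35 in hepatic and 0.30 and 0.62 in monoculture libraries when 1 library was left out, against 0.41, 0.29 and 0.51 with all. Among single genes named, 236 alternative values lost a call and 102 gained one. Of 73 calls for named list genes, 44 held in all 12 fits without 1 library. The lowest count of a member in a library was 107, for ANKRD37, and the effect of depth was not tested.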

Other observations

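Partners of BNIP3 and BNIP3L in mitophagy showed no shared shift. Of 18 tested, 3 rose and 0 fell in cardiac co-culture against monoculture (edgeR's quasi-likelihood test; 4.93% of all tested genes rose), and 3 rose and 2 fell in hepatic co-culture, with medians of 0.05 and 0.00. FKBP8, a mitophagy receptor, and ULK1, the kinase that starts autophagy, rose in hepatic co-culture by 0.55 ± 0.10 and 0.63 ± 0.14 on the log2 scale. In cardiac co-culture they rose by 0.35 ± 0.10 and 0.49 ± 0.14, calls made in 5 and 3 of the 12 fits without 1 library. BECN1, a subunit of the autophagy lipid kinase, fell in hepatic co-culture (-0.24 ± 0.06, adjusted p = 0.00896).

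Of 15 tested clock genes, which BHLHE40 acts on, 5 rose and 10 did not pass in cardiac co-culture, and 7 rose and 2 fell in hepatic co-culture. Over all tested genes 4.93% rose in cardiac co-culture, and 14.4% rose and 13.6% fell in hepatic co-culture. BHLHE41, the paralog of BHLHE40, averaged 11.7 CPM in cardiac, 12.1 CPM in hepatic and 5.95 CPM in monoculture libraries, and rose by 0.97 ± 0.18 and 1.03 ± 0.18 (adjusted p = 0.0061 and 0.000353). NR1D1, a clock repressor, rose in cardiac co-culture by 0.86 ± 0.16. DBP and TEF, clock output factors, rose in hepatic co-culture by 1.56 ± 0.18 and 1.09 ± 0.13. Between the co-cultures 2 clock genes were higher and 4 lower in cardiac co-culture, beside 3.27% and 2.91% of all tested genes. Among them were PER1 and ARNTL (1.08 ± 0.08 and 0.75 ± 0.14) and PER3, at -0.84 ± 0.15. PER1 is also on the glucocorticoid list.

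Of 13 tested targets of the stress factor ATF4 (PHGDH was below the low-count filter), 3 rose in cardiac co-culture and 4 rose and 1 fell in hepatic co-culture, beside the same shares of all genes. DDIT3 and TRIB3, genes of the unfolded protein response, rose by 0.85 ± 0.19 and 0.86 ± 0.19 in cardiac co-culture and by 0.87 ± 0.19 and 0.69 ± 0.19 in hepatic co-culture, and the cardiac calls were made in 8 and 6 of the 12 fits without 1 library. SESN2, a stress-induced inhibitor of mTORC1, rose in cardiac co-culture by 0.71 ± 0.17 (7 of 12 such fits). SLC7A11, the cystine transporter, rose in hepatic co-culture by 0.81 ± 0.20. CEBPB was higher in cardiac than in hepatic co-culture by 0.62 ± 0.14 (adjusted p = 0.0189, 10 of 12 such fits). Of the glycolytic list, HK1 was higher in cardiac than in hepatic co-culture by 0.25 ± 0.07 (adjusted p = 0.0321, 6 of 12 such fits).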
